A study of Mus musculus with 6 samples.

Results

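The integrins, cadherins, junction proteins and other adhesion receptors of cultured mouse muscle satellite cells, together with the dystrophin complex, were described here through 102 genes, out of 6370 genes named on the array. They were chosen by gene symbol, as members of the integrin, sarcoglycan, syntrophin, dystrobrevin, caveolin, cadherin, protocadherin, connexin, claudin, junctional adhesion molecule, Icam, Ncam, syndecan and tetraspanin families, plus single genes such as Dmd, Sspn, Bcam, Vcam1 and Mymk. Earlier results of these data were known when the choice was made. Each gene had 1 feature on the array. Of the 102, 96 had values and were tested, while Itgb6, Cdh17, Gja10, Cldn16, Jam2 and Sdc1 held no value on any array. Dag1, Utrn, Dysf, Itgb1, Ncam1, Icam1, Boc, Cd34, Cd44 and Cd81 were not analysed here. The symbol pattern also took in Itgb1bp1, Itgb1bp2 and Itgb3bp, which are not integrins but proteins named for binding to them.

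Satellite cells are the stem cells of skeletal muscle. Differentiated cultures, 3 in all, had been switched for 72 hours to a medium without fibroblast growth factor, in which horse serum stood at 10% and insulin, by its label, at 1 mM. They were set against 3 proliferating cultures kept with basic fibroblast growth factor at 6.6 ng/ml. Each of 3 adult male Swiss Webster mice gave 1 culture of each kind from its pooled hind limb muscles, so that replicate numbers 1, 2 and 3 stand for mice. Cells of both groups had been preplated on plastic to remove fibroblasts and grown on gelatin with the same growth factor, and no genetic change was stated for either. The cultures were mixtures of myoblast clones and RNA came from whole plates, so a value joins fused and unfused cells. Here fewer cells of a type and less RNA per cell cannot be told apart.

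All 6 arrays had median intensities between 0.883 and 0.939. A principal component analysis separated the groups along its first axis (38.7% of the variance), but proliferating replicate 1 lay nearest to the differentiated arrays. For a number of the genes below, though not all, differences are therefore given with and without that array. The array was picked from these same data. Where it was the highest of its group, leaving it out enlarges a rise by construction, so a pass gained that way is no separate support. Muscle markers were present, with summed intensities over 10 genes of 818 to 1254 in differentiated and 282 to 826 in proliferating cultures. A gene is called dim here where both group means lay under 0.179, the 25th percentile of positive values, a range limited by background. Dim were 5 of 6 endothelial markers (Pecam1 and Kdr among them), 4 of 10 fibroblast markers, 5 of 9 macrophage and leukocyte markers (Ptprc and Tyrobp among them, but not C1qb, Cd14, Laptm5 and Cd3e), and 3 of 7 epithelial markers (Epcam among them, but not Krt18, Krt19, Muc1 and Sfn). Summed intensities in differentiated and proliferating cultures were 2.24 to 2.68 and 4.07 to 5.71 for the fibroblast markers. Without Fbln1, which was picked out after its values were seen, the fibroblast sums were 1.75 to 2.29 and 1.88 to 2.38, and the median log2 difference of all 10 was 0.10, with 5 up and 5 down. The sums in differentiated and proliferating cultures were 0.469 to 1.02 and 0.485 to 0.927 for the endothelial markers, and 1.15 to 2.42 and 0.944 to 1.99 for the macrophage and leukocyte markers. The sums were 10.0 to 17.5 and 7.92 to 9.59 for 3 Schwann cell markers and 59.7 to 170.2 and 13.8 to 99.0 for 8 smooth muscle markers. Most of the smooth muscle sums was Acta2, with means of 114.3 and 56.6. Of those 8 genes 5 were higher and 3 lower in differentiated cultures, and the groups overlapped for all of them. For 7 adipocyte markers, of which Car3 and Cd36 are also made by muscle, the sums were 258 to 515 and 13.5 to 133. For 7 epithelial markers they were 2.31 to 3.95 and 1.96 to 9.47. The part of other cell types in the results below was not tested, except where a value is given.

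Integrins are pairs of alpha and beta chains that bind laminin, fibronectin and other matrix proteins and connect them to actin. In muscle the dystrophin complex makes a second link of this kind: dystrophin binds actin inside the cell and, through dystroglycan, the sarcoglycans and sarcospan, is tied to laminin outside, with syntrophins and dystrobrevins attached on the inner face. Cadherins join neighbouring cells, connexins form gap junctions between them, and tetraspanins and myomaker act in the membrane during myoblast fusion.

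Of the 96 measured genes, 4 passed the threshold of 0.05 on the adjusted p, which was 4.17% of them beside 1.30% of all 10186 features tested. Sgcd and Bcam rose in differentiated cells, and Gjc1 and Vcam1 fell. The counts were thus 2 higher, beside 0.285% of all features, and 2 lower, beside 1.01%. With mouse as a fixed block 4 genes passed, Bcam and Tspan13 higher and Gjc1 and Vcam1 lower, beside 0.560% of features higher and 0.874% lower. Treating mouse as a random effect gave 15 calls, 10 of them higher and 5 lower. Those shares were 10.4% higher beside 5.07% of all features, and 5.21% lower beside 5.28%. The shift of the 96 genes as a whole was small, with a median log2 difference, differentiated minus proliferating, of 0.16 beside 0.20 over all features. The 2 groups did not overlap for 11 genes that were higher and 13 that were lower in differentiated cells, or 11.5% and 13.5% beside 11.0% and 9.81% of all features. The lower count includes the laminin-binding integrins Itga3 and Itga6, N-cadherin, both promyogenic receptors measured here, a syndecan and 3 tetraspanins, none of which passed without a block. At an unadjusted p below 0.05 there were 14 upward (14.6%) and 11 downward (11.5%), beside 7.82% and 7.09% of all features. Within mice, 33 genes were higher in the differentiated culture of all 3 (34.4%, beside 30.8%) and 21 lower (21.9%, beside 17.9%). Of the 96 genes, 21 were dim (21.9%, beside 19.3% of features).

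**Figure D1:**
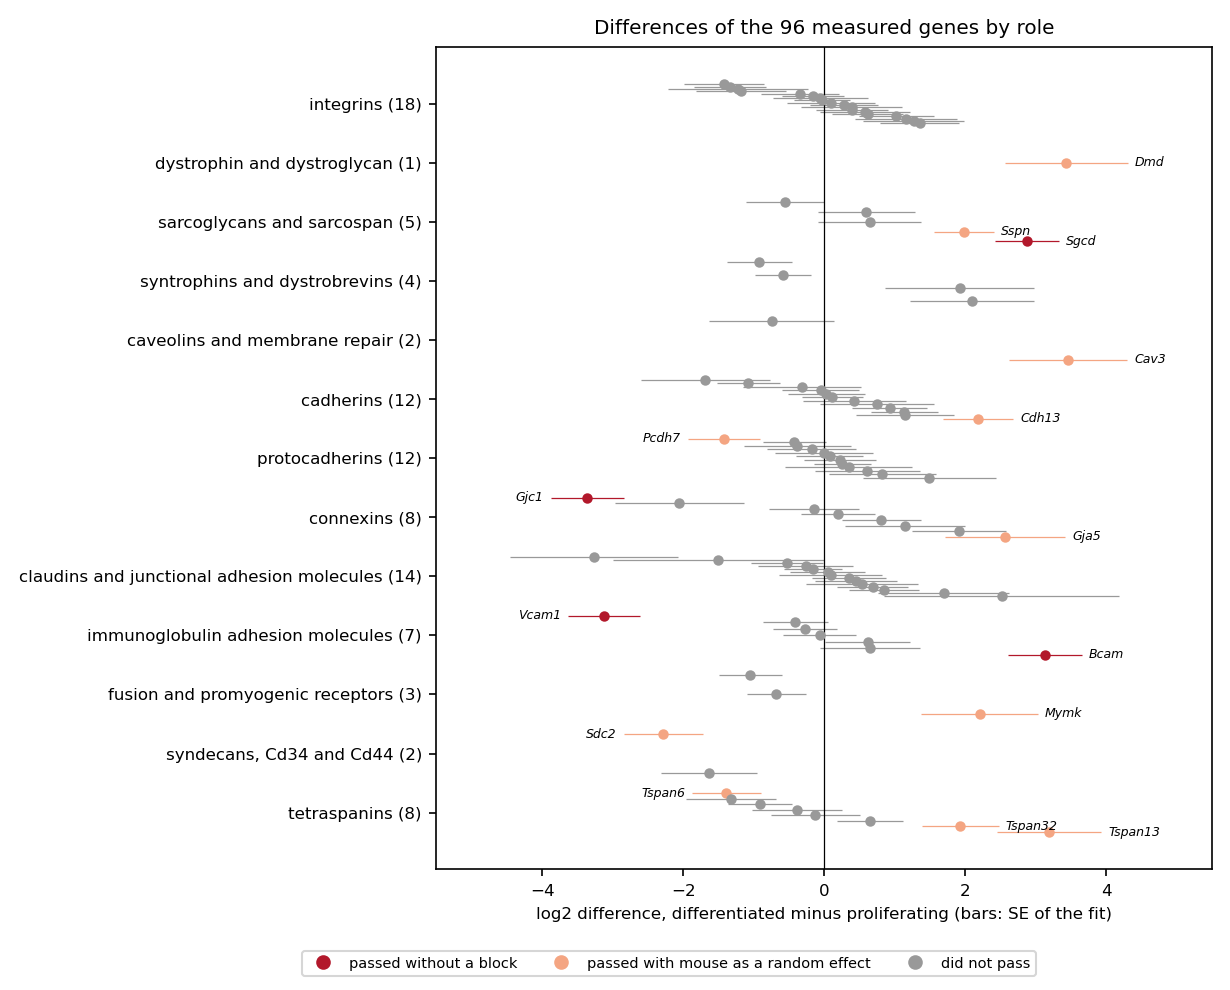
Log2 difference (differentiated minus proliferating, horizontal axis) of each of the 96 measured genes, arranged by role with the number of genes in brackets; bars are standard errors, with 3 arrays in each group. The 4 genes that passed without a block differed by 2.87 to 3.36 in size, and the 11 others that passed with mouse as a random effect are named, while the integrins, with 0 calls, stay between -1.42 and 1.36.

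The dystrophin complex was represented by 10 genes. In all 3 mice 7 of them were higher (70.0%) and 3 lower (30.0%), beside 30.8% and 17.9% of all features. Their median log2 difference was 1.28, beside 0.20 over all features. In the test without a block 1 of the 10 passed, beside 1.30% of all features. It was Sgcd, which encodes delta-sarcoglycan, a membrane subunit of the complex. Its intensities were 2.83, 4.44 and 2.60 in differentiated cultures of mice 1, 2 and 3, against 0.349, 0.385 and 0.618 in proliferating cultures. The lowest differentiated value stood well clear of the highest proliferating value. Sgcd rose by 2.87 ± 0.45 on the log2 scale (± SE, n = 3 each, limma adjusted p = 0.0325), a 7.32-fold difference. It did not pass with mouse as a fixed block (adjusted p = 0.0516) and passed with mouse as a random effect (0.00401). Leaving out any 1 array gave differences of 2.63 to 3.12 and adjusted p of 0.0532 to 0.160, so the call needed all 6 arrays while its size did not.

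Dystrophin itself, the product of Dmd, had intensities of 11.5, 6.51 and 4.45 in differentiated and 2.55, 0.222 and 0.468 in proliferating cultures. The groups did not overlap, and proliferating replicate 1 was the highest of its group. The log2 difference was 3.43 ± 0.87 (adjusted p = 0.107), and 0.0143 with mouse as a random effect. Without proliferating replicate 1 it was 4.43 and passed (adjusted p = 0.0315), and without proliferating replicate 2 it was 2.67 (adjusted p = 0.329). Sspn, which encodes sarcospan, a small membrane protein bound to the sarcoglycans, had intensities of 13.6, 12.7 and 19.7 in differentiated and 3.61, 3.09 and 4.97 in proliferating cultures. The order of the mice was the same in both kinds of culture. Within mice 1, 2 and 3 its log2 differences were 1.91, 2.04 and 1.99, closer to each other than those of Sgcd or Dmd (adjusted p = 0.0741, and 0.00731 with mouse as a random effect).

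The other sarcoglycans had smaller differences than Sgcd. Sgca, or alpha-sarcoglycan, had intensities of 17.6, 3.81 and 9.51 in differentiated and 10.5, 3.18 and 5.49 in proliferating cultures. Sgcb, or beta-sarcoglycan, had 39.5, 8.23 and 13.4 against 21.3, 5.07 and 10.6. For both genes mouse 1 was highest and mouse 2 lowest in either culture, and the differentiated culture was the higher 1 in all 3 mice. Their log2 differences were 0.60 ± 0.69 and 0.64 ± 0.74 (adjusted p = 0.766 for each), and did not pass with mouse in the model (0.274 and 0.249 as a fixed block). Without differentiated replicate 1 they were 0.08 and 0.01. The gap to Sgcd itself was not tested. Sgce, the epsilon chain, which is made in many tissues, was dim in both groups, with a difference of -0.56.

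Among the cytoplasmic partners, the alpha-dystrobrevin gene Dtna and the beta-1-syntrophin gene Sntb1 pointed up and their relatives Dtnb and Sntb2 down. Dtna had intensities of 61.9, 31.9 and 26.0 in differentiated and 34.5, 2.69 and 7.04 in proliferating cultures. Proliferating replicate 1 exceeded 2 of the differentiated arrays, and the difference was 2.10 ± 0.88 (adjusted p = 0.317), or 3.09 without that array and 1.25 without proliferating replicate 2. Sntb1 had 5.28, 2.14 and 2.46 against 2.74, 0.128 and 1.45. Its difference of 1.92 ± 1.06 ranged from 0.61 to 2.81 on leaving out 1 array, lowest without proliferating replicate 2. Sntb2, which encodes beta-2-syntrophin, had 0.921, 0.972 and 0.862 against 1.43, 1.65 and 1.10. The groups did not overlap, with a difference of -0.59 ± 0.40 (adjusted p = 0.561). Dtnb, which encodes beta-dystrobrevin, had a difference of -0.92 ± 0.45 (adjusted p = 0.397), with lower values in differentiated cells of all 3 mice.

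Cav3, the muscle caveolin, which shapes membrane pits and binds dystroglycan, had intensities of 125, 129.6 and 101 in differentiated and 41.2, 3.25 and 9.21 in proliferating cultures. The differentiated values lay close together and the proliferating values spread widely, with replicate 1 highest. The difference was 3.46 ± 0.84 (adjusted p = 0.0988), and 0.0188 with mouse as a random effect. Without proliferating replicate 1 it was 4.43 and passed (adjusted p = 0.0298), and without proliferating replicate 2 it was 2.60 (adjusted p = 0.273). The widely expressed Cav1 had a difference of -0.74 ± 0.89, with 2.44, 1.54 and 7.72 against 2.04, 3.88 and 17.1. Mouse 3 was highest in both kinds of culture, the groups overlapped, and the difference was 0.13 without proliferating replicate 3.

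**Figure D2:**
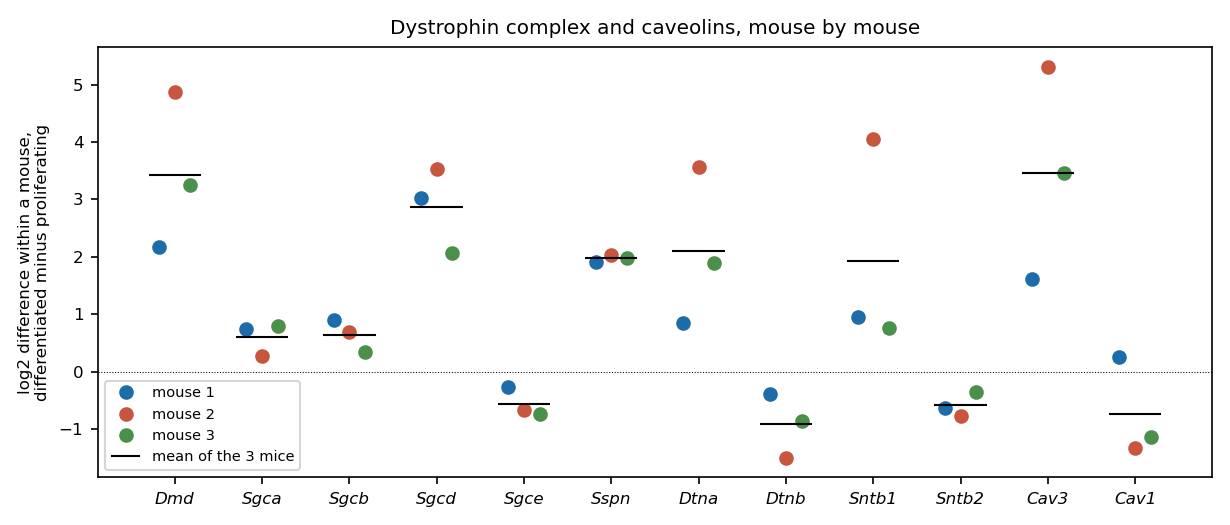
Log2 difference between the differentiated and the proliferating culture of each mouse (vertical axis) for the 10 dystrophin complex genes and the 2 caveolins; points are mice and black lines the mean of the 3. The 3 mice nearly coincide for Sspn (1.91, 2.04 and 1.99), whereas Dmd, Sgcd, Dtna, Sntb1 and Cav3 are largest in mouse 2 (4.88, 3.53, 3.57, 4.06 and 5.32).

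Promoter sequence is shown for Dmd and Sgcd, the complex genes with the largest differences, and for Cav3, the caveolin with a difference of like size and direction. Each line gives the 250 bases before the RefSeq gene start (GRCm38.p6), 5′ to 3′ on the gene's strand, with E-boxes in capitals. An E-box is the motif CANNTG, bound by myogenic regulatory factors among others, and reads the same on both strands. The windows are chr11:47379326-47379575 on the minus strand for Sgcd, chrX:82948620-82948869 on the plus strand for the first of 2 starts listed for Dmd, and chr6:112459255-112459504 on the plus strand for Cav3.
Sgcd: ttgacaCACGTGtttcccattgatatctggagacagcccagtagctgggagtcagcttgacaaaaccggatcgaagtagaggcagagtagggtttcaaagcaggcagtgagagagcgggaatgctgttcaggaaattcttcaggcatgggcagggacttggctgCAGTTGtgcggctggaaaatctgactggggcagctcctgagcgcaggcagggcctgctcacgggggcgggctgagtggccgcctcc
Dmd: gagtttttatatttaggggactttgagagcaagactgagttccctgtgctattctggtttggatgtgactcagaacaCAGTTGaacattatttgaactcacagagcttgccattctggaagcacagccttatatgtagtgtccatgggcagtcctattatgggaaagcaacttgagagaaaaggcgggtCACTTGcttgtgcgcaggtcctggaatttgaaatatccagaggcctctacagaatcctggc
Cav3: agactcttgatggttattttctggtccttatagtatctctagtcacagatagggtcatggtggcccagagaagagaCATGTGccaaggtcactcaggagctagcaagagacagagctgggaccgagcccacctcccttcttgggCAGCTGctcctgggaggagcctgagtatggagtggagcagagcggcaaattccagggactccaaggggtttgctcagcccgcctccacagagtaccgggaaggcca
Each of the 3 windows held 2 E-boxes. Counted from the gene start, they were CACGTG at -244 and CAGTTG at -86 for Sgcd, CAGTTG at -173 and CACTTG at -61 for Dmd, and CATGTG at -174 and CAGCTG at -106 for Cav3. The window at the second Dmd start held 0. The motif is common: 66.2% of the 32851 windows of this length held it, and so did 65.9% of the 85 windows that matched 68 of the 102 genes. The form CAGCTG, which is contained in the E-box pattern, was found in 4271 of all windows and in 13 of those 85. A match is a description of the letters and not a shown binding site.

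Bcam, an immunoglobulin-family receptor for laminin, was the other gene that rose. It had intensities of 8.90, 4.71 and 6.79 in differentiated and 1.39, 0.534 and 0.577 in proliferating cultures. The groups were far apart, and mouse 1 was highest and mouse 2 lowest in both cultures. The rise was 3.12 ± 0.52 on the log2 scale, or 8.72-fold (adjusted p = 0.0345), and it passed with mouse as a fixed block (0.0495) and as a random effect (0.00359). Leaving out 1 array gave 2.88 to 3.57. It passed without proliferating replicate 1 (adjusted p = 0.0315) and missed without any of the other arrays, up to 0.178. The 250 bases before its start at chr7:19770533-19770782, minus strand, are shown for contrast with the muscle genes.
Bcam: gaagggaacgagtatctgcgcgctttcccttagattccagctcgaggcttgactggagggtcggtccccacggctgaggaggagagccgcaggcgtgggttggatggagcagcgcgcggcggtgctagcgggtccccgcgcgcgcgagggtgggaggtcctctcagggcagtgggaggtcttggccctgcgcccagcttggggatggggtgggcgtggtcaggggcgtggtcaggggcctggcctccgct
This window held 0 E-boxes and had a GC content of 70.0%, beside 58.0%, 45.2% and 56.0% for the Sgcd, first Dmd and Cav3 windows.

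No integrin passed in any of the 3 fits. The 18 genes measured in this role, which include Itgb1bp1, Itgb1bp2 and Itgb3bp, had 0 calls by limma. Of all features 1.30% were called without a block, 1.43% with a fixed and 10.3% with a random mouse effect. At an unadjusted p under 0.05, 1 was higher (5.56%) and 2 were lower (11.1%), beside 7.82% and 7.09% of all features. Itga7, the alpha chain of the main laminin receptor of mature muscle, had intensities of 5.60, 1.46 and 5.85 in differentiated and 5.18, 1.38 and 2.97 in proliferating cultures. Mouse 2 was lowest in both, and the difference of 0.39 ± 0.71 changed sign to -0.11 without proliferating replicate 2. The other laminin-binding alpha chains pointed down. Itga3 had 0.659, 1.88 and 1.04 against 3.53, 2.12 and 2.77, a difference of -1.33 ± 0.51 (adjusted p = 0.274). Itga6 had 0.347, 0.727 and 1.00 against 2.58, 1.03 and 1.83, a difference of -1.42 ± 0.56 (adjusted p = 0.290). In both the groups did not overlap, but the step in mouse 2 was small (-0.17 and -0.50). Without proliferating replicate 1 the differences of Itga3 and Itga6 were -1.15 and -1.12. Itga5, the fibronectin-binding chain, was higher in all 3 mice, with a difference of 1.36 ± 0.56 (adjusted p = 0.306, and 0.0527 with mouse as a random effect). Its proliferating mean was 0.190, near the range limited by background, and with a pseudocount the difference was 0.79. Itgav, the alpha v chain, was dim in both groups. Itgb1bp2, or melusin, a muscle protein that binds the integrin beta-1 tail, had 251, 94.4 and 144 against 116, 60.5 and 57.7, a difference of 1.02 ± 0.53 (adjusted p = 0.418).

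Vcam1, a cell surface molecule of satellite cells that binds integrin alpha-4, fell. Its intensities were 0.558, 0.410 and 1.25 in differentiated cultures, against 5.64, 5.54 and 6.07 in proliferating cultures. The proliferating cultures were nearly equal, with a mean of 5.75 ± 0.28 (SD, n = 3), while the differentiated cultures averaged 0.738 ± 0.446. The log2 change was -3.13 ± 0.51, an 8.73-fold difference (adjusted p = 0.0335, 0.0495 with mouse as a fixed block and 0.00376 as a random effect). Leaving out 1 array gave -3.59 to -2.79 and adjusted p of 0.0517 to 0.155, so the call needed all 6 arrays. Itga4, the alpha chain of its receptor, showed no shift of this kind, with overlapping groups and a difference of -0.06 ± 0.67. Mcam, another immunoglobulin-family molecule, found on endothelial and muscle precursor cells, was slightly lower in all 3 mice, with a difference of -0.27 ± 0.45 (adjusted p = 0.851), or -0.05 without differentiated replicate 1. Icam2, Icam4 and Icam5 were dim in both groups, and Ncam2 had a difference of 0.65 ± 0.70.

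**Figure D3:**
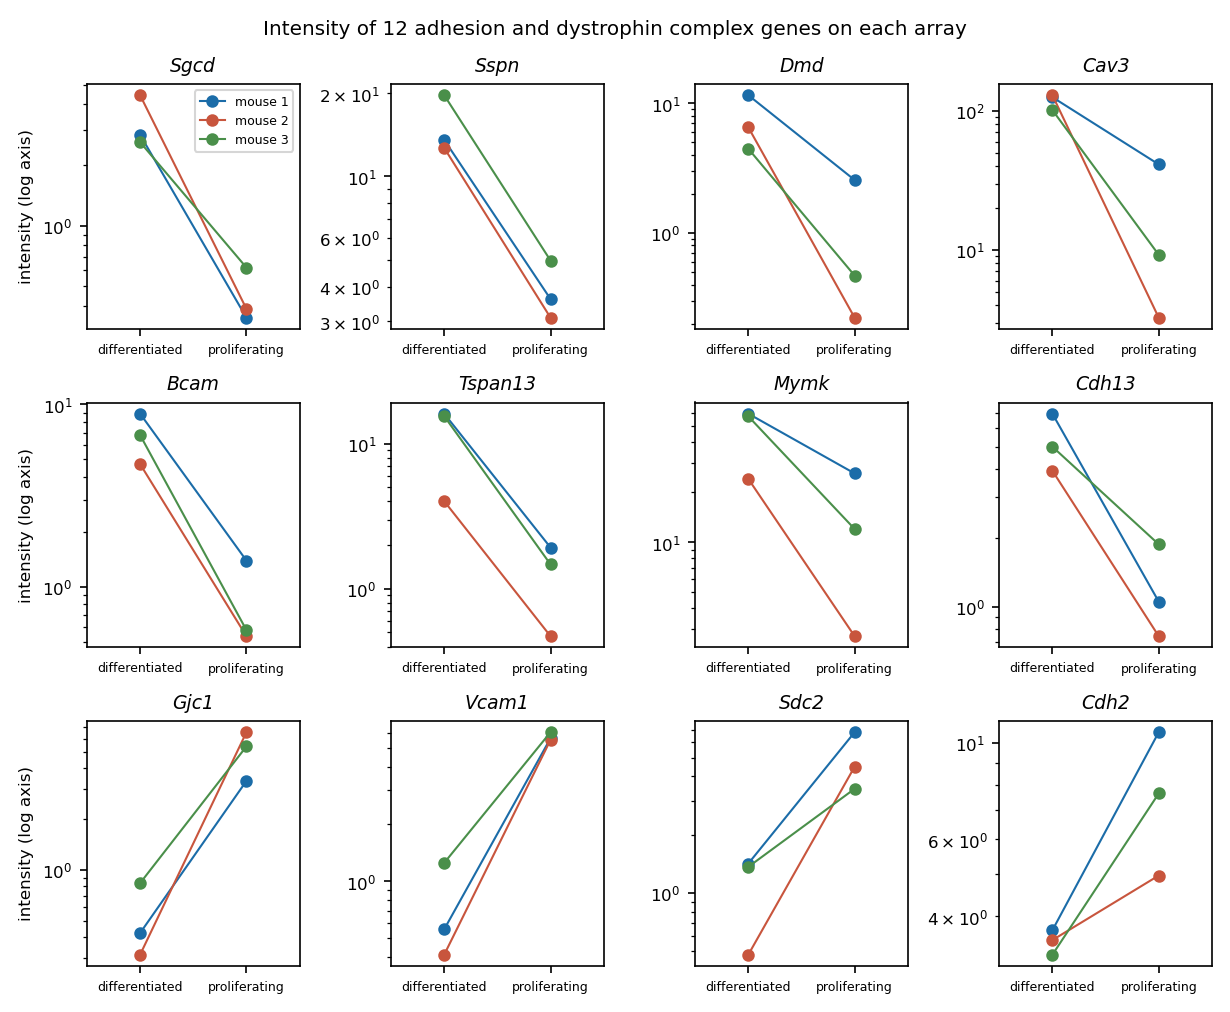
Intensity (vertical axes, log scale, each panel with its own range) of 12 genes in the differentiated culture, left, and the proliferating culture, right; each line joins the 2 cultures of 1 mouse. The upper 8 genes are higher and the lower 4 lower in the differentiated culture of every mouse, and among the upper 8 proliferating replicate 1 is the highest of its group for Dmd, Cav3, Bcam, Tspan13 and Mymk.

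Gap junction genes pointed in both directions. Gjc1, which encodes connexin 45, fell, with intensities of 0.422, 0.314 and 0.834 in differentiated cultures against 3.37, 6.56 and 5.40 in proliferating cultures. The highest differentiated value was below every proliferating value. The change was -3.36 ± 0.52, or 10.3-fold (adjusted p = 0.0317, 0.0495 with mouse as a fixed block and 0.0037 as a random effect). It ranged from -3.76 to -3.05 on leaving out 1 array and passed without proliferating replicate 1 (adjusted p = 0.0349), but not without any of the other 5 arrays, where it reached 0.148. Gja1, or connexin 43, the widespread gap junction protein, had 0.551, 0.137 and 2.03 against 1.85, 1.61 and 3.67. Mouse 3 was highest and mouse 2 lowest in both cultures, and the difference of -2.05 ± 0.91 did not pass (adjusted p = 0.345) and was -1.07 without differentiated replicate 2. Gja5, or connexin 40, known from the heart and arteries, had 0.928, 1.51 and 5.77 against 0.676, 0.124 and 0.461. The groups did not overlap, but differentiated replicate 3 stood above the others, and the difference of 2.57 ± 0.85 (adjusted p = 0.208) became 1.81 to 3.13 on leaving out 1 array. It passed with mouse as a random effect (adjusted p = 0.0485). Gjb2, or connexin 26, an epithelial connexin, had a difference of 1.91 ± 0.67 (adjusted p = 0.237), with a step of 4.02 in mouse 2 and 0.32 in mouse 1. The other connexins, Gja4, Gjb1, Gjb5 and Gjd2, had differences from -0.14 to 1.14.

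The 12 cadherins had differences from -1.69 to 2.18, and neither of the 2 known from myoblasts passed in any of the 3 fits. Cdh15, or M-cadherin, the cadherin that marks satellite cells and myoblasts, had 7.51, 6.26 and 12.8 in differentiated and 14.8, 4.91 and 9.17 in proliferating cultures. It was lower in mouse 1 and higher in mice 2 and 3, with a difference of -0.05 ± 0.54 that ran from -0.46 without proliferating replicate 2 to 0.33 without proliferating replicate 1. Cdh2, or N-cadherin, which also joins myoblasts, had 3.72, 3.53 and 3.27 against 10.6, 4.96 and 7.65. The differentiated cultures were nearly equal and all below the proliferating ones, and the difference was -1.08 ± 0.44 (adjusted p = 0.303, and 0.0696 with mouse as a random effect). Without proliferating replicate 1 it was -0.82. Cdh13, or T-cadherin, which lacks a cytoplasmic tail and is anchored by a lipid, had 6.96, 3.92 and 4.99 against 1.05, 0.741 and 1.87. It was higher in every mouse with no overlap, at 2.18 ± 0.50 (adjusted p = 0.0847, and 0.0113 with mouse as a random effect). Cdh1, the epithelial E-cadherin, had a proliferating mean of 0.120, in the range limited by background, and a difference of 1.14 ± 0.47, or 0.56 with a pseudocount. Among 12 protocadherins, Pcdh7 had the largest negative difference, with 2.23, 1.25 and 1.54 against 7.03, 4.73 and 2.49. Its groups did not overlap, and the difference of -1.42 ± 0.52 (adjusted p = 0.253) passed with mouse as a random effect (0.0459). Without proliferating replicate 1, its highest array, it was -1.08 (limma adjusted p = 0.409 without a block). The other 11 had differences between -0.42 and 1.49, and 3 of the 12 were dim in both groups.

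Claudins, the sealing proteins of tight junctions, had 0 calls among 14 measured in each of the 3 limma fits. Of all features 1.30% were called without a block, 1.43% with a fixed and 10.3% with a random mouse effect. At an unadjusted p under 0.05 without a block, 1 claudin, Cldn4, was lower (7.14%, beside 7.09% of all features) and 0 were higher (beside 7.82%). Cldn5, the endothelial claudin, was dim in both groups, at 0.0971 ± 0.0816 in differentiated and 0.0986 ± 0.0475 in proliferating cultures (SD, n = 3 each). The largest claudin differences rested on 1 or 2 arrays, and the following 3 genes were singled out after their values were seen. Cldn4, an epithelial claudin, had 0.0545, 0.437 and 0.205 against 2.14, 7.03 and 0.289, a difference of -3.27 ± 1.19 (adjusted p = 0.253). The epithelial keratin gene Krt18 was highest on the same array, proliferating replicate 2, with 0.192, 0.160 and 0.080 against 0.522, 5.31 and 0.352. Of the other measured epithelial markers, Sfn was also highest there (3.42). Krt8 (0.061), Krt19 (0.330), Muc1 (0.149) and Elf3 (0.091) were not, and Epcam stayed between 0.055 and 0.220 on all 6 arrays. The part of epithelial cells in the Cldn4 values was not tested. Cldn10 had 5.29 in differentiated replicate 2 and 0.262 or less on the other arrays. Cldn2 had 2.64 in differentiated replicate 3 and 0.359 or less elsewhere. The remaining claudins had differences from -1.51 to 0.85.

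Of the 3 genes measured in the fusion and promyogenic role, Mymk was higher and Cdon and Neo1 were lower in all 3 mice. Mymk, or myomaker, the membrane protein that myoblasts need to fuse, had 59.5, 24.1 and 57.4 in differentiated and 25.9, 2.71 and 12.0 in proliferating cultures. It was higher in each mouse, but proliferating replicate 1 exceeded differentiated replicate 2. The difference was 2.20 ± 0.83 (adjusted p = 0.268). It became 2.93 without proliferating replicate 1 and 1.30 without proliferating replicate 2 (adjusted p = 0.116 and 0.593), and it passed with mouse as a random effect (0.0414). Cdon, a cadherin-binding receptor that promotes myogenic differentiation, had 1.79, 2.37 and 2.64 against 3.12, 4.72 and 3.14. Neo1, or neogenin, a netrin receptor that acts with it, had 0.285, 0.353 and 0.536 against 0.761, 1.00 and 0.629. Neither showed overlap, and the differences of -0.68 ± 0.42 and -1.05 ± 0.45 did not pass (adjusted p = 0.513 and 0.319), nor did they under the random mouse effect (0.181 and 0.0887).

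Both measured syndecans, heparan sulfate proteoglycans that assist growth factor receptors and integrins, were lower in every mouse. Sdc2 had 1.42, 0.478 and 1.36 in differentiated and 6.78, 4.50 and 3.46 in proliferating cultures. The groups were apart, at -2.28 ± 0.56 (adjusted p = 0.101, and 0.0159 with mouse as a random effect). Sdc4, a syndecan that marks satellite cells, had 9.87, 5.59 and 8.0 against 56.5, 26.4 and 8.92. Proliferating replicate 3 lay among the differentiated values, and the difference was -1.64 ± 0.68, or -1.01 without proliferating replicate 1 (adjusted p = 0.313 with all arrays).

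Tetraspanins, membrane proteins that gather integrins and other receptors into clusters, also divided. Tspan13 had 16.1, 4.02 and 15.5 in differentiated and 1.92, 0.471 and 1.47 in proliferating cultures. Mouse 1 was highest and mouse 2 lowest in both, and the steps within mice 1, 2 and 3 were 3.07, 3.09 and 3.40. The difference of 3.19 ± 0.74 missed the threshold without a block (adjusted p = 0.0903) and passed with mouse as a fixed block (0.0495) and as a random effect (0.00674). Tspan32, a tetraspanin known from blood cells, had 4.10, 2.37 and 1.98 against 1.31, 0.589 and 0.452, a difference of 1.93 ± 0.55 (adjusted p = 0.142, and 0.0151 with mouse as a random effect). Leukocyte markers were higher in differentiated cells for 7 of 9 genes, beside 6255 of 10186 features. Their median was 0.33, beside 0.20 over all features, and 5 of the 9 were dim. The largest rise was in Fcer1g (1.65, or 0.45 with a pseudocount), which was dim. The 2 lower genes were Cd14 (-1.46, lower in all 3 mice) and C1qa (-0.845). The part of leukocytes in the Tspan32 difference was not tested. Tspan6 had 26.6, 9.67 and 15.2 against 46.2, 37.4 and 40.6. It was lower with no overlap, at -1.39 ± 0.49 (adjusted p = 0.236, and 0.0417 with mouse as a random effect). Tspan4 and Tspan5 showed no overlap either, with differences of -1.32 ± 0.64 and -0.91 ± 0.45, and neither passed in any of the 3 fits. Without differentiated replicate 2 the Tspan4 difference was -0.61. Cd9, a tetraspanin that acts with integrins and in cell fusion, had 24.2, 6.38 and 24.1 against 31.2, 14.4 and 18.4, with overlapping groups and a difference of -0.39 ± 0.63, or 0.25 without differentiated replicate 2. The remaining Tspan3 and Tspan31 had differences of 0.65 and -0.13.

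Values also varied by mouse and by array. Of the 75 genes not dim in both groups, 25 ranked the 3 mice in the same order in both cultures, or 33.3% beside 36.1% of 8179 features. Among them were Sgca, Sgcb, Sspn, Sntb1, Bcam, Vcam1, Gja1, Mymk and Tspan13. Of the 11 genes that were higher without overlap, 8 had proliferating replicate 1 as the highest of its group (72.7%, beside 60.2% of 1049 such features that were not dim). Of the 13 that were lower without overlap, 7 had that array as the highest of its group (53.8%, beside 32.6% of 981 such features). Without that array 4 genes passed, beside 1.76% of all features, 3 as higher, Dmd, Cav3 and Bcam, and 1 as lower, Gjc1, beside 0.895% and 0.865%, while Sgcd and Vcam1 had adjusted p of 0.0532 and 0.0519. With a pseudocount 10 genes passed, beside 3.86% of all features, 7 of them higher (Dmd, Sgcd, Sspn, Cav3, Cdh13, Bcam and Tspan13, beside 1.25%) and 3 lower (Gjc1, Vcam1 and Sdc2, beside 2.61%). Calls with mouse as a fixed block lay just under the threshold, all 4 at an adjusted p of 0.0495. That shared value comes from the adjustment, as their unadjusted limma p ran from 0.000109 (Tspan13) to 0.000669 (Gjc1).

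**Figure D4:**
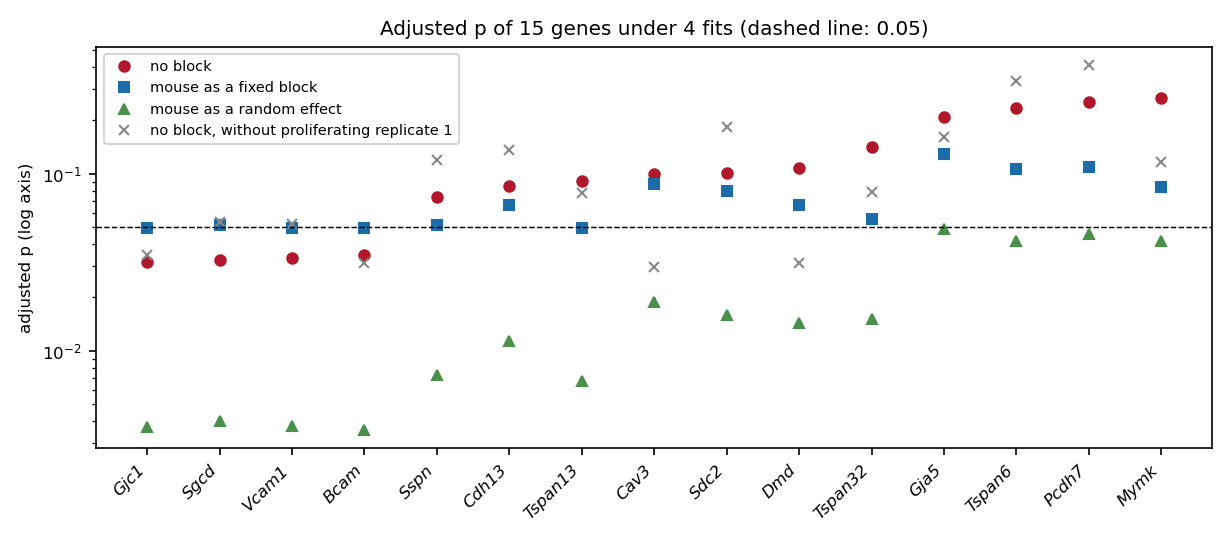
Adjusted p (vertical axis, log scale; dashed line 0.05) of the 15 genes that passed in at least 1 of the fits without a block, with mouse as a fixed block or with mouse as a random effect, together with the fit that leaves out proliferating replicate 1. Gjc1, Vcam1 and Bcam are below the line in all 3 fits of 6 arrays. Without a block, Dmd and Cav3 cross it when proliferating replicate 1, the highest of its group for both, is left out.

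Genes that work beside these receptors were taken from 7 lists of partners, of which 69 genes were measured. Of the 69, 0 passed by limma without a block, beside 1.30% of all features. At an unadjusted p below 0.05, 8 were upward (11.6%) and 6 downward (8.70%), beside 7.82% and 7.09%, and the median difference was 0.24 beside 0.20 over all features. Under the random mouse effect there were 7 calls upward (10.1%) and 4 downward (5.80%), beside 5.07% and 5.28% of all features. Of 14 costamere and membrane repair genes 4 were higher in that fit: Capn3, a muscle protease (2.69, adjusted p = 0.033), Cavin4, a muscle partner of caveolin (2.13, 0.0256), Popdc2, a membrane protein of striated muscle (3.04, 0.0208), and Bin1, which bends membranes (1.40, 0.0399). Popdc2 also passed with mouse as a fixed block (adjusted p = 0.0495). Of 15 integrin adaptors and kinases 2 were higher, Fhl1, a LIM protein of muscle (4.02, adjusted p = 0.0233), and the kinase Fyn (2.11, 0.0245). Of 13 matrix ligands 3 were lower, the basement membrane protein Nid1 (-4.14, adjusted p = 0.0114), Thbs1, or thrombospondin 1 (-2.03, 0.0212), and Tnc, or tenascin C (-2.91, 0.0265). Of 9 fusion partners Ccn2, a matrix signalling protein, was higher (2.77, adjusted p = 0.033), and of 4 tight junction partners Cxadr, a junction adhesion receptor, was lower (-1.47, 0.0445). Catenins, desmosome proteins and nectins had 0 calls among 12 in every fit by limma, with Pkp1 the nearest (adjusted p = 0.416, and 0.101 with mouse as a random effect). The 2 measured genes of dystroglycan glycosylation had 0 calls as well, with Dpm1 at 0.95 (adjusted p = 0.418, and 0.102 with mouse as a random effect).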

How the data were processed

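RNA of 6 cultures was hybridised as biotin-labelled cRNA, made from 5 µg of total RNA, to 1-colour CodeLink arrays, per the labels' protocols. The authors deposited linear intensities, a few of them at or under 0. Bacterial control mRNAs served for intensity normalization, per the labels; the scanner software and scaling step were not given in the sources used here, and detection calls went unused. Precision is limited by the 6 arrays.

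Of 10500 features, the platform annotation gave 6373 a single gene symbol, 0 several and 4127 none; all 6373 matched the GRCm38.p6 gene table by Entrez ID, and 0 symbols changed. Intensities under the 1st percentile of positive values (0.0236) were set to it and log2 taken. Array medians lay within 0.089 (log2), under the tolerance of 0.2, so the arrays were not rescaled. The 10186 features with at least 2 values per group entered limma 3.58.1 (R 4.3.3), where lmFit and eBayes were run on group alone, with Benjamini-Hochberg adjustment over all features and a threshold of 0.05. The procedure was tested on simulated data. Promoters are from RefSeq.

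The labels' replicate numbers mark mice, and by the series design both cultures came from every mouse. After removing group means, arrays of mice 1, 2 and 3 correlated over 10128 features at 0.42, 0.37 and 0.28. Arrays with unlike numbers were not correlated, so the pairing rests on the series design and not on these values. Fits with mouse as a fixed block or as a random effect (duplicateCorrelation, correlation 0.535) were alternatives, because the sources used here state no analysis method. The fit without a block does not use the pairing by mouse, and every ± SE given here comes from it. With mouse as a fixed block the SE of Tspan13 was 0.27 instead of 0.74, and that of Itga3 0.50 instead of 0.51.

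The members, lists and tests were chosen with earlier results of these data known. Named genes are those that passed in any of the 3 fits, up to 3 rises and 3 falls without overlap per role, and a panel known in muscle; Itga4, Itgb1bp2, Ncam2, the Icam genes and 3 claudins were added after their values were seen. Other alternatives were the floor, a pseudocount of 0.179, quantile normalization, median centring, dim features, complete features only, a trended robust variance prior, other thresholds, the dimmest feature of a gene, and leaving out each array or mouse.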

Additional observations from a re-analysis of the deposited data

How the results depend on the processing

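Counts of the 96 adhesion and dystrophin complex genes that passed were 2 higher and 2 lower. With a pseudocount 7 were higher (1.25% of all features) and with a trended, robust prior 5 (1.23%), against 2 without either (0.285%). The replicate block gave 10 higher and 5 lower with a random mouse effect, and 2 and 2 with a fixed one. An adjusted p under 0.1 gave 6 higher (1.07% of features), and under 0.01 limma gave 0 and 0, with 0 calls among all features. Fits that each omitted 1 array gave from 0 to 3 upward and from 0 to 1 downward. Limma made 0 calls in these genes without any 1 array other than proliferating replicate 1. In the fits without 1 of those other arrays, 8 to 15 genes were higher and 5 to 8 lower at an unadjusted p under 0.05. In the same fits 986 to 1516 of 10153 to 10171 features reached that level in either direction. Across all features those fits made 59 calls without differentiated replicate 1 and 0 in the other 4. Dropping mouse 1, 2 or 3 altogether gave 0 limma calls in each case, as over all features. At an unadjusted p under 0.05, 14, 10 and 9 genes were then higher and 5, 7 and 8 lower. In either direction 1424, 854 and 920 of 10157, 10134 and 10150 features reached that level. Fewer arrays enter these fits. Of the 69 partner genes, 0 higher and 0 lower became 7 and 4 under a random mouse effect, and 1 and 0 under a fixed mouse block. Omitting 1 array gave from 0 to 2 upward, 2 without proliferating replicate 1. A floor at the 10th percentile, a pseudocount, the prior, leaving out dim features and an adjusted p under 0.1 each gave 1 partner gene lower. The other alternatives stayed within 1.5 times of these counts. For the 41 genes named by the rule, 0 of 735 values under an alternative changed the sign of a difference that passed in either setting. In 14 of the 735 the sign changed for a difference that passed in neither, all in 6 genes: Itga7, Itgav, Cav1, Cdh15, Cldn5 and Cd9. Differences of genes with a group mean under 0.179 are limited by background. The cause of each change was not tested.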
